A study of Mus musculus with 8 samples.

Results

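Glutamate receptors and the proteins of the postsynaptic density were followed in mouse brain with and without Cav1, which encodes caveolin 1, a membrane protein of caveolae. The 46 genes were taken by symbol from the 34299 genes of the count table, and all 46 were found and could be tested in both comparisons. They comprise 6 NMDA receptor subunits, 4 AMPA receptor subunits with 4 auxiliary proteins, 4 kainate receptor subunits, 2 metabotropic receptors, 4 Dlg, 4 Dlgap, 3 Shank and 3 Homer scaffolds, 4 CaMKII subunits, 3 neuroligins and 5 other postsynaptic genes. Bulk RNA-seq of poly(A)-selected RNA gave 8 libraries in 3 groups: wild type (WT) at gestation day 15 (n = 3), Cav1 knockout (KO) at gestation day 15 (called fetal KO, n = 3) and Cav1 KO at week 70 (n = 2). The labels call the fetal libraries biological replicates. They do not say whether the week 70 libraries came from separate animals, so p-values with age may measure only the spread between libraries. Strain, sex and the design of the KO allele are not given in the labels. The sample titles name fetal brain and aging brain and give no region. WT brain at week 70 was not analysed here, so genotype was compared at day 15 and age was compared within the KO. The fetal KO libraries enter both comparisons.

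At an excitatory synapse, glutamate opens AMPA receptors, which carry the fast current, and NMDA receptors, which pass calcium once the membrane is depolarised. Kainate receptors form a further family of glutamate-gated channels, while metabotropic receptors act through G proteins. Under the membrane, Dlg proteins (Dlg4 encodes PSD-95) hold the receptors and are tied through Dlgap proteins to Shank and Homer, and the kinase CaMKII acts on receptors and scaffolds after calcium entry. In rodent forebrain, synapses form mostly after birth, when NMDA receptors shift from the GluN2B subunit (Grin2b) toward GluN2A (Grin2a).

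Total counts ranged from 14110031 to 20833397 per library, so that 3 counts, the limit allowed by a count of 0, correspond to 0.14 to 0.207 CPM (counts scaled to a common library size). Fetal KO libraries, at 14110031 to 15245283 counts, were all shallower than WT, at 19414747 to 20833397, and with no batch in the labels a batch and the genotype cannot be told apart. This limit and all counts are subject to counting error, and reads without molecular identifiers are not independent molecules. Cav1 itself (ENSMUSG00000007655) had 367, 218 and 329 counts in WT, 0, 3 and 1 in fetal KO, and 1 and 5 at week 70, so that no library went against its genotype label. Each of 11 neuronal markers was detected in every group, and their summed level was 4240 to 4790 CPM in WT, 3310 to 3400 in fetal KO and 10700 to 10900 at week 70. Some libraries stood apart in markers of other tissue: WT replicate 1 had 4439 CPM from 6 fibroblast and meningeal genes against 306 and 517 in the other WT libraries, and WT replicate 3 had 112 CPM from 7 Hox genes of the hindbrain and spinal cord against 0.51 and 0.2. Fetal KO replicates 1 and 2 had 8.36 and 24.5 CPM from these Hox genes, against 0.87 in replicate 3. Counts of changed genes are therefore also given without each of these libraries.

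The 46 genes together took 0.535, 0.565 and 0.589% of all counts in the WT libraries, 0.533, 0.537 and 0.536% in the fetal KO libraries, and 1.77 and 1.64% at week 70. The WT and fetal KO ranges overlapped, while both week 70 libraries lay above all fetal libraries. In bulk RNA, fewer cells of a type and less RNA per cell cannot be told apart. Levels below are CPM on TMM-scaled library sizes, and tests are edgeR quasi-likelihood F-tests over all genes with Benjamini-Hochberg adjustment and a threshold of 0.05.

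**Figure D1:**
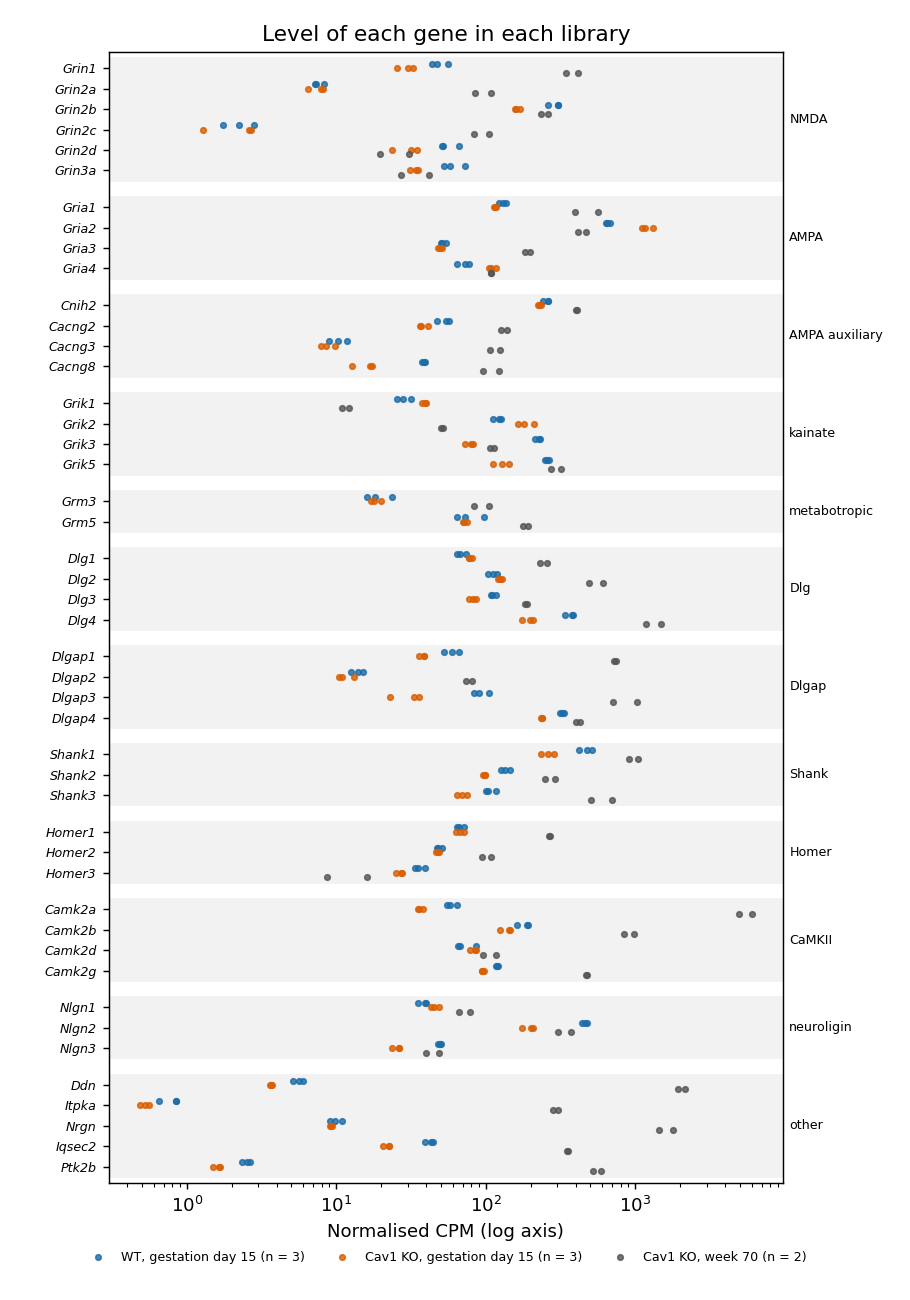
Normalised CPM (log axis) of each of the 46 genes in each of the 8 libraries, by role; each point is 1 library. Week 70 points stand far to the right for genes such as Camk2a, Ddn, Itpka, Nrgn and Ptk2b, and to the left of both fetal groups for Grik1, Grik2 and Homer3.

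Between KO and WT at day 15, 32 of the 46 genes (69.6%) passed the threshold, against 62.6% of the 19147 genes tested. Higher in KO were 7 genes (background 30.1% of all tested genes): Gria2, Gria4, Grik2, Grik1, Nlgn1, Dlg1 and Dlg2. Lower in KO were 25 (background 32.5%), which is the larger direction among these genes. The members' median log2 fold change was -0.41, beside 0.03 over all tested genes. Libraries of the KO and WT groups did not overlap in 35 of the 46 genes, against 68.3% of all tested genes. Without WT replicate 1 the fit called 33 members (6 higher, 27 lower), and without WT replicate 3 it called 32 (8 higher, 24 lower). Without fetal KO replicate 1 it called 31 (7 higher, 24 lower), and without fetal KO replicate 2 it called 30 (6 higher, 24 lower). In the same order these fits called 58.2, 57.3, 55.6 and 55% of all tested genes.

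The day 15 fold changes of these genes followed the base composition of their transcripts. Across the 46 genes, the rank correlation between log2 fold change and the GC content of the longest annotated transcript was -0.66, and across 19050 tested genes it was -0.48 with GC content and -0.37 with transcript length. Genes are not independent replicates, and these correlations are descriptions. Of the 23 members at or above the median GC of 52.6%, 17 were lower and 0 were higher in KO, whereas of the 23 below it 8 were lower and 7 higher. Over all tested genes of any GC content 32.5% were lower and 30.1% higher. The same split by GC was not made for them, so these counts cannot be set against genes of like GC content. A second edgeR fit was made, in which each library's smooth trend over transcript length and GC content enters as an offset. In that fit 27 members passed, 19 of them higher (background 26%) and 8 lower (background 25.1%), their median log2 fold change was 0.18, and the rank correlation with GC content was 0.031. The direction of the list at day 15 therefore depends on this choice, and both values are given for the genes below. A call in the same direction in both fits was found for Gria2, Gria4, Grik1, Grik2, Dlg1 and Dlg2 (higher in KO) and for Grin2b, Cacng8, Grik3, Dlg4, Dlgap3 and Nlgn3 (lower in KO). Lower without the offset but higher with it were Grin2d, Dlgap4, Shank1, Shank2, Shank3, Homer3 and Iqsec2.

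**Figure D2:**
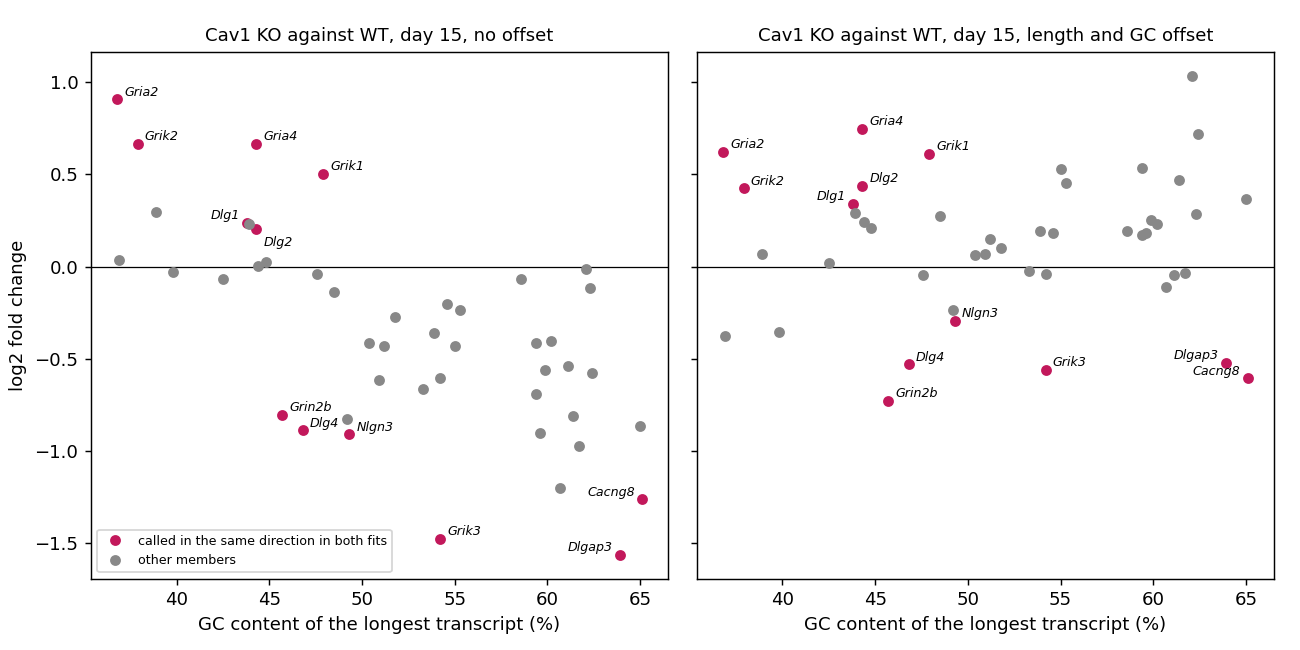
log2 fold change of KO against WT at day 15 (y axis) against the GC content of the longest transcript in % (x axis) for the 46 genes, without (left) and with (right) the length and GC offset; named points were called in the same direction in both fits. On the left the points fall from Gria2 at 36.8% GC to Cacng8 and Dlgap3 near 65%, and on the right the rank correlation is 0.031 while the named genes keep their side of 0.

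**Figure D3:**
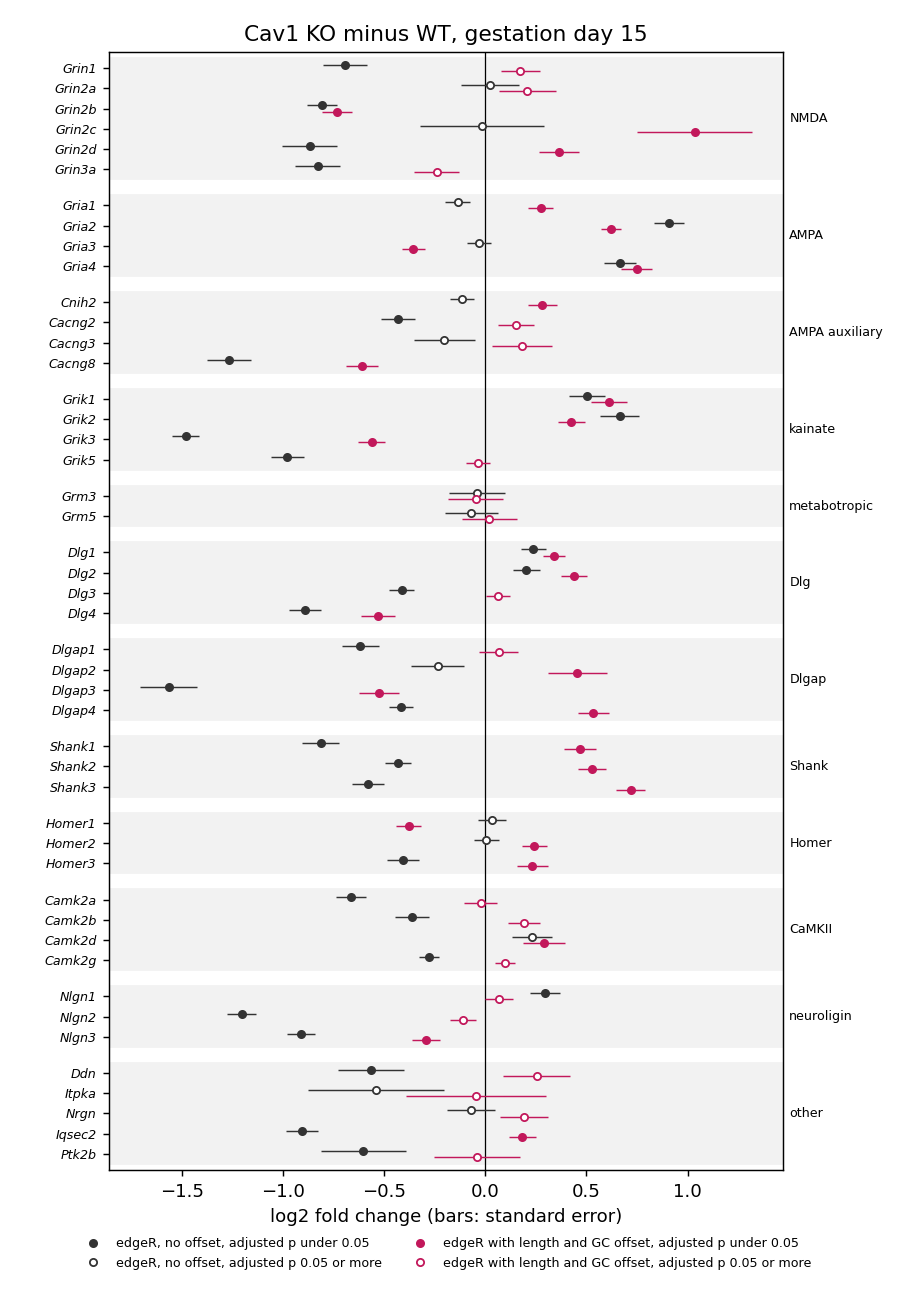
log2 fold change of KO against WT at day 15 with its standard error for the 46 genes, by role, without (dark) and with (red) the length and GC offset; filled points passed the adjusted p threshold. Gria2, Gria4, Grik1 and Grik2 lie to the right of 0 in both fits and Grin2b, Cacng8, Grik3, Dlg4 and Dlgap3 to the left, whereas the 3 Shank genes change sides.

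From fetal KO to KO week 70, 43 of the 46 genes (93.5%) passed, against 82% of the 20000 genes tested. Higher at week 70 were 39 (background 37.6%), and lower were 4 (background 44.4%): Gria2, Grik1, Grik2 and Homer3. Grin2d, Grin3a and Gria4 did not pass. The members' median log2 fold change was 1.83, beside -0.19 over all tested genes, and the groups did not overlap in 43 members, against 87.9% of all tested genes. With the offset 40 members passed (background 78.7%), 34 higher and 6 lower. Shares of all genes by direction are not given for this fit. In it the members' median log2 fold change was 1.74, beside -0.04 over all tested genes. Neuronal markers split 8 higher to 3 lower with age, while 8 of 8 oligodendrocyte markers (126 to 156, 96.9 to 106 and 13600 to 13700 summed CPM in WT, fetal KO and week 70) and 8 of 8 astrocyte markers (509 to 591, 245 to 260 and 8220 to 8930) were higher. Their part in the members' rise was not tested.

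**Figure D4:**
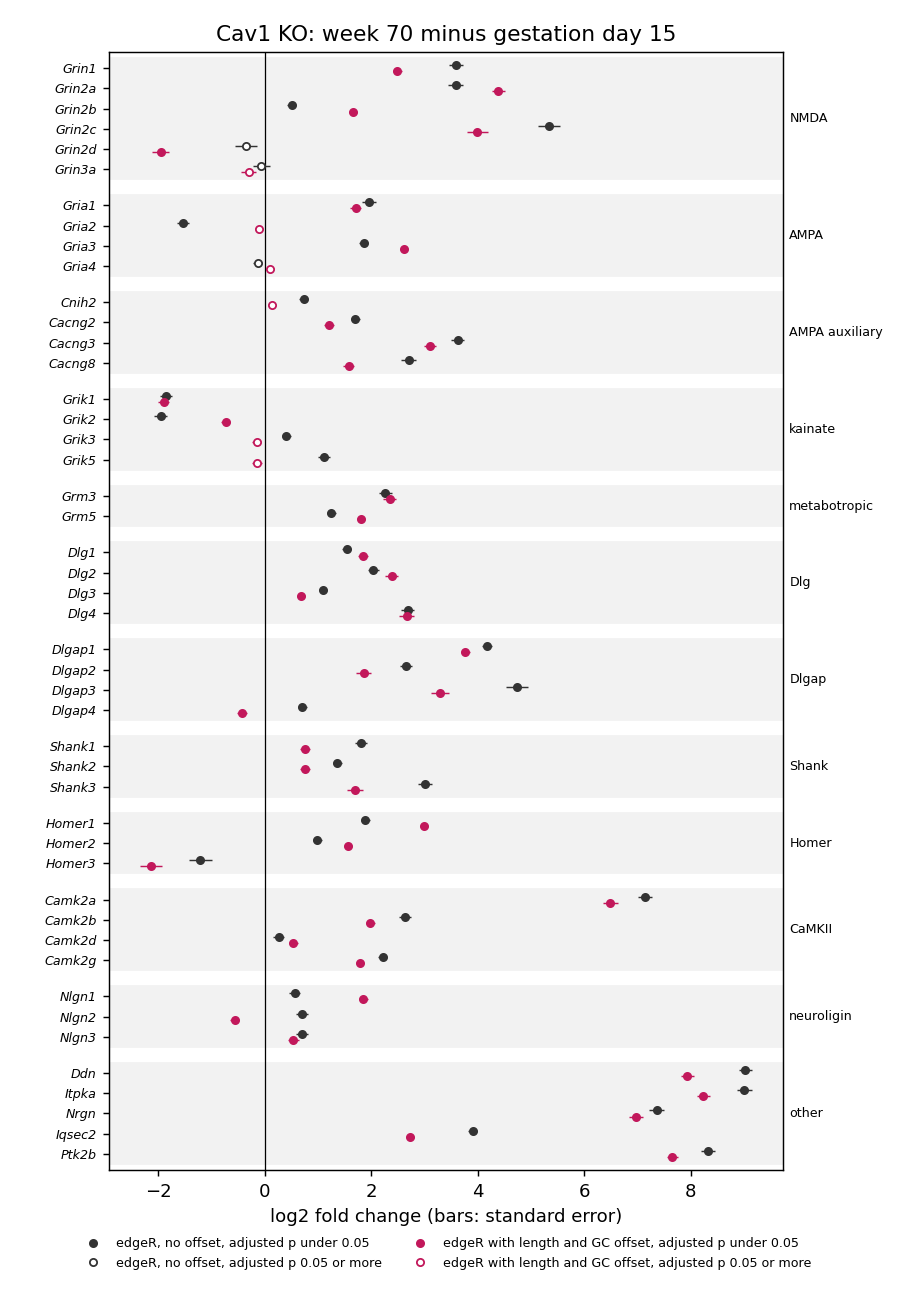
log2 fold change of KO week 70 against fetal KO with its standard error for the 46 genes, by role, without (dark) and with (red) the length and GC offset; filled points passed the adjusted p threshold. Ddn, Itpka, Ptk2b, Nrgn and Camk2a lie at 6 or more on the log2 scale in both fits, and Grik1, Grik2 and Homer3 lie below 0 in both.

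The NMDA receptor is built from the obligatory subunit GluN1 (Grin1) with GluN2 (Grin2a to Grin2d) or GluN3 (Grin3a) partners. All GluN2 subunits end in a short stretch that binds the PDZ domains of Dlg scaffolds, and its coding bases show what the 4 genes of the balance described here share. Shown are the last 33 bases of each reading frame with its stop codon, from the longest open reading frame of the GENCODE M21 transcripts, with the last 4 codons before the stop in capitals.
Grin2a: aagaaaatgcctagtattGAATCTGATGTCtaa
Grin2b: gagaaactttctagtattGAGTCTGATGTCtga
Grin2c: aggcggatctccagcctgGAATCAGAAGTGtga
Grin2d: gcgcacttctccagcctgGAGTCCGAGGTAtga
Of the 12 capital bases, 11 in Grin2b, 9 in Grin2c and 8 in Grin2d are the same as in Grin2a.

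In the WT fetal brain Grin2b had a mean of 11.7 CPM per kb of exon, against 0.423 for Grin2a. Grin2b (ENSMUSG00000030209, chromosome 6) stood at 262, 302 and 305 CPM in WT, 168, 159.8 and 156 in fetal KO, and 232 and 260.3 at week 70. Every KO fetal library was below every WT library, and the week 70 libraries lay above the KO fetal ones and below all WT libraries. Its log2 fold change at day 15 was -0.81 (SE 0.075, edgeR adjusted p 5.34e-06), and -0.73 with the offset, and with age it was 0.51 (SE 0.0874, adjusted p 3.09e-04) and 1.66 with the offset. Grin2a (ENSMUSG00000059003, chromosome 16) stood at 7.15, 7.33 and 8.29 CPM in WT, 8.18, 6.5 and 7.88 in fetal KO, and 84.3 and 109 at week 70. The fetal groups overlapped (log2 fold change 0.03, edgeR adjusted p 0.89; 0.21 and not called with the offset), and the week 70 level was 12.8-fold the KO fetal level (log2 fold change 3.58, SE 0.14, edgeR adjusted p 3.15e-09).

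The balance of the pair, taken within each library, differed between the groups by more than their spread. The log2 ratio of Grin2a to Grin2b counts was -5.19, -5.36 and -5.20 in WT, -4.36, -4.61 and -4.31 in fetal KO, and -1.46 and -1.26 at week 70. No 2 groups overlapped. The mean ratio was higher in KO than in WT by 0.82, and higher at week 70 than in fetal KO by 3.07. An exact two-sided permutation test over libraries gave p = 0.1 for each, the smallest p these group sizes allow, and 0.1 after adjustment over 8 such tests of ratios. With transcript GC contents of 44.8% and 45.7% this pair is nearly matched in GC content, but not in transcript length (14634 and 24060 bases). In the offset fits the differences were 0.94 and 2.73. Per exon length, Grin2a made up 3.51% of the Grin2a and Grin2b signal in WT, 6.06% in fetal KO and 35.1% at week 70.

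The other NMDA subunits separated into those that rose with age and those that did not. Grin1, at 43.9, 47.2 and 55.5 CPM in WT and 32.7, 30.2 and 25.3 in fetal KO, reached 345 and 416 at week 70. Its groups did not overlap at day 15 (log2 fold change -0.69, SE 0.11, edgeR adjusted p 2.85e-04), but the offset gave 0.17 with no call, and with age it rose by 3.59 on the log2 scale (2.49 with the offset). Grin2c, a subunit of cerebellar granule cells and of astrocytes, was low in all fetal libraries, at 2.24, 2.79 and 1.76 CPM in WT and 2.61, 2.67 and 1.27 in KO, and stood at 106 and 83.8 at week 70. It overlapped between genotypes (log2 fold change -0.02, and 1.04 with the offset, where it was called) and was 43.4-fold higher at week 70 than in fetal KO. Of 7 cerebellar markers, 6 were tested with age: 4 were lower, among them Zic1 (171 to 49.6 CPM), and 2 were higher, Calb1 (31.9 to 134) and Cbln3 (0.849 to 2.74). Their summed level was 237 to 260 CPM in fetal KO and 188 to 225 at week 70. Gabra6, also on this list, had 0, 1 and 1 counts in fetal KO and 11 and 3 at week 70 (0.725 and 0.207 CPM). Astrocyte markers were higher with age in 8 of 8 genes (245 to 260 and 8220 to 8930 summed CPM), and the part of either cell type in the rise of Grin2c was not tested.

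Grin2d and Grin3a, subunits typical of the developing brain, did not pass with age. Grin2d was 50.6, 52.1 and 65.8 CPM in WT, 34.7, 31.6 and 23.6 in fetal KO, and 19.7 and 30.7 at week 70. Grin3a was 52.9, 58 and 72.2 CPM in WT, 35.2, 34.1 and 31.2 in fetal KO, and 27.1 and 41.5 at week 70. For both genes all KO fetal libraries lay below all WT libraries, while KO fetal and week 70 libraries overlapped. At day 15 their log2 fold changes were -0.87 and -0.83 (edgeR adjusted p 2.86e-04 and 7.78e-05), but with the offset Grin2d was called higher (0.36) and Grin3a was not called (-0.24). With age Grin2d gave -0.35 (edgeR adjusted p 0.127). It passed as lower at -0.50 without fetal KO replicate 3 and at -1.96 with the offset. Upper-quartile scaling and the replicate block also called it lower. Its value was -0.70 without week 70 replicate 2, and the alternatives ranged from -2.03 to -0.05. Grin3a gave -0.06 with age (edgeR adjusted p 0.716) and passed at -0.40 without week 70 replicate 2. In Grin1 and Grin2d, 1307 and 643 exon bases lie opposite an antisense gene, and whether counting used strand is not stated.

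As shares of all NMDA subunit signal per exon length, Grin2b, Grin2d, Grin1 and Grin3a took 37.8, 27.2, 16.2 and 16.0% in WT and 37.1, 25.4, 17.2 and 15.5% in fetal KO. At week 70 Grin1 took 49.0%, Grin2c 23.7%, Grin2b 12.4%, Grin2a 6.71%, Grin2d 4.69% and Grin3a 3.47%. These shares are means over libraries and were not tested. Exon length covers all annotated exons of a gene, 9700 bases for Grin1, whose longest transcript has 4276, and 24842 against 24060 for Grin2b. The order of shares therefore depends on the length used, here and in the other families. Without division by length, Grin2b took 28.1% and Grin2c 10.9% at week 70.

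**Figure D5:**
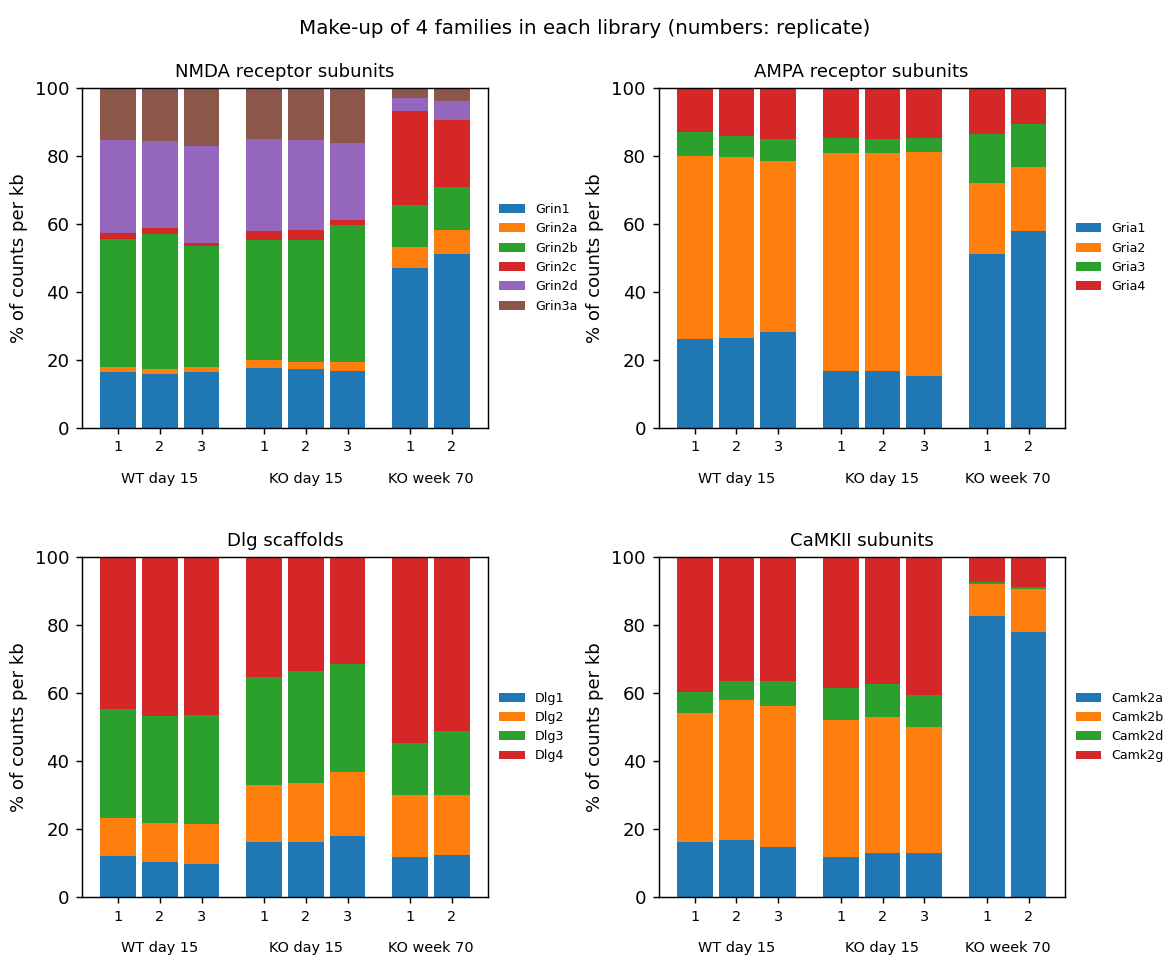
Share of each gene in the counts per kb of exon (y axis, %) within the NMDA, AMPA, Dlg and CaMKII families, for each library (x axis, by group and replicate). Gria2 fills more of the AMPA bar in fetal KO (64.8% on average) than in WT (52.4%) and week 70 (19.9%), and Camk2a fills 80.2% of the CaMKII bar at week 70 on average.

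Among AMPA receptor genes, Gria2 and Gria4 were higher in the KO fetal brain. Gria2, which encodes the subunit that makes the channel poorly permeable to calcium, stood at 650.2, 674 and 636 CPM in WT, 1116, 1158 and 1304 in fetal KO, and 415 and 470.0 at week 70. The 3 groups did not overlap, with fetal KO highest and week 70 lowest. At day 15 the gene (ENSMUSG00000033981, chromosome 3) rose 1.83-fold (log2 fold change 0.91, SE 0.0723, edgeR adjusted p 1.67e-06), and the offset gave 0.62 (edgeR adjusted p 3.3e-06). With age it fell by 1.53 on the log2 scale (SE 0.115, edgeR adjusted p 4.67e-07), a call that was lost with the offset (-0.11, adjusted p 0.227). Gria4 was 64.4, 72.5 and 77.7 CPM in WT, 105, 109 and 117 in fetal KO, and 108 and 108 at week 70. Both KO groups lay above WT and overlapped each other. Its log2 fold change was 0.67 at day 15 (SE 0.0797, edgeR adjusted p 3.55e-05) and 0.75 with the offset. With age it was -0.13 (edgeR adjusted p 0.193) and ranged from -0.38 to 0.13 over the alternatives. Upper-quartile scaling called Gria4 lower with age.

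Gria1 and Gria3 rose with age and did not pass the threshold between genotypes. Gria1 was 123, 131 and 137 CPM in WT, 114, 117 and 116 in fetal KO, and 393 and 564 at week 70. All KO fetal libraries were slightly below WT, by 0.14 on the log2 scale, which missed the threshold (edgeR adjusted p 0.0752), passed without WT replicate 1 (-0.20) and turned to a called 0.27 with the offset. Gria3 was 54.3, 51 and 50.2 CPM in WT, 49, 47.7 and 51.3 in fetal KO, and 184 and 198 at week 70. The fetal groups overlapped (log2 fold change -0.03, edgeR adjusted p 0.68; a called -0.36 with the offset). With age Gria1 rose by 1.95 and Gria3 by 1.86 on the log2 scale, and both calls held with the offset (1.71 and 2.62).

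The balance of Gria2 to Gria1 differed between all 3 groups. On the log2 scale of counts it was 2.41, 2.36 and 2.21 in WT, 3.30, 3.31 and 3.49 in fetal KO, and 0.08 and -0.26 at week 70. Groups did not overlap. The difference was 1.04 between KO and WT and -3.46 between ages (exact permutation p = 0.1 for each, the smallest possible, adjusted 0.1). In the offset fits these differences shrank to 0.35 and -1.82, with GC contents of 36.8% for Gria2 and 48.5% for Gria1.

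AMPA receptors are accompanied by transmembrane regulatory proteins (Cacng2, Cacng3 and Cacng8) and by the cornichon Cnih2, which affect their traffic and gating. At day 15, 2 of these 4 passed (background 62.6%), both lower (background 32.5%), and with age 4 of 4 rose (background 37.6%). Cacng8, chosen for description after its values were seen, was 37.7, 38.5 and 39.4 CPM in WT, 16.8, 17.2 and 12.8 in fetal KO, and 95.4 and 122 at week 70. Its groups did not overlap, and at day 15 it fell by 1.26 on the log2 scale (SE 0.108, edgeR adjusted p 2.78e-06) and by 0.61 with the offset. Cacng3 was 8.88, 10.2 and 11.9 CPM in WT, 7.88, 9.78 and 8.52 in fetal KO, and 124 and 107 at week 70. The fetal groups overlapped (log2 fold change -0.20, edgeR adjusted p 0.26; 0.18 and not called with the offset), and the rise with age was 13.2-fold. Cacng2 gave -0.43 at day 15 (edgeR adjusted p 0.00129; 0.15 and not called with the offset) and 1.70 with age. Cnih2 gave -0.11 at day 15 (edgeR adjusted p 0.124), which passed as lower at -0.17 without WT replicate 1 and as higher at 0.28 with the offset. It gave 0.73 with age, a call lost with the offset (0.14).

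The 4 kainate receptor subunits did not move together. Grik1 and Grik2 were higher in KO fetuses and lower at week 70, and Grik3 was lower in KO fetuses, while Grik5, which encodes a high-affinity subunit, was lower in KO fetuses only in the fit without the offset. Grik2 stood at 111, 123 and 126 CPM in WT, 164, 181 and 211 in fetal KO, and 51.9 and 50.5 at week 70. Grik1 stood at 25.4, 28 and 31.4 CPM in WT, 37.5, 39.4 and 39.9 in fetal KO, and 10.9 and 12.2 at week 70. In both genes the 3 groups were apart, fetal KO on top and week 70 at the bottom. The log2 fold changes at day 15 were 0.67 for Grik2 (SE 0.0959, edgeR adjusted p 1.40e-04; 0.43 with the offset) and 0.50 for Grik1 (SE 0.0897, edgeR adjusted p 6.38e-04; 0.61 with the offset). With age they were -1.96 and -1.85, and both calls held with the offset (-0.74 and -1.90).

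Grik3 was 212, 232 and 227 CPM in WT, 81.6, 79.4 and 73 in fetal KO, and 114 and 107 at week 70. WT was highest and fetal KO lowest without overlap, a 2.87-fold difference between the fetal genotypes (log2 fold change -1.48, SE 0.0663, edgeR adjusted p 4.13e-08; -0.56 with the offset). Its rise of 0.40 with age was not called with the offset (-0.15) or with upper-quartile scaling (0.15). Grik5 was 250.2, 257 and 264 CPM in WT, 142, 128 and 111 in fetal KO, and 316 and 274 at week 70. Its groups did not overlap, but the day 15 log2 fold change of -0.98 was -0.04 with the offset, and the rise of 1.12 with age was -0.14 with it, neither offset value being called. Per exon length, Grik2, Grik1, Grik3 and Grik5 shared the family at 10.3, 4.77, 28.3 and 56.6% in WT, 26.4, 10.9, 16.4 and 46.3% in fetal KO, and 5.17, 2.30, 16.4 and 76.1% at week 70.

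Promoters of 4 of these genes are shown as examples of different patterns. Gria2 and Grik2 were higher in KO fetuses and lower at week 70, and Grik3 was lower in KO fetuses. Nrgn, described below, was among the largest rises with age. Each window spans 250 bases before to 50 bases after the annotated start, from RefSeq on GRCm38.p6, read 5′ to 3′ on the gene's strand, with CG dinucleotides in capitals. The positions are chr3:80802786-80803085 (minus strand) for Gria2, chr10:49788705-49789004 (minus) for Grik2, chr4:125490446-125490745 (plus) for Grik3 and chr9:37552696-37552995 (minus) for Nrgn.
Gria2: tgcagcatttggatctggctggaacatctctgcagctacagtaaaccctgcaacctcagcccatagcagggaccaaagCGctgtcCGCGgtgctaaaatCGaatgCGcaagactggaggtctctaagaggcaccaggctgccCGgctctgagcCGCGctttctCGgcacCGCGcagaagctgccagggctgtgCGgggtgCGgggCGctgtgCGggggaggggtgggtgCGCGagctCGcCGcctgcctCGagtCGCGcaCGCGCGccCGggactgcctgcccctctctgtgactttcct
Grik2: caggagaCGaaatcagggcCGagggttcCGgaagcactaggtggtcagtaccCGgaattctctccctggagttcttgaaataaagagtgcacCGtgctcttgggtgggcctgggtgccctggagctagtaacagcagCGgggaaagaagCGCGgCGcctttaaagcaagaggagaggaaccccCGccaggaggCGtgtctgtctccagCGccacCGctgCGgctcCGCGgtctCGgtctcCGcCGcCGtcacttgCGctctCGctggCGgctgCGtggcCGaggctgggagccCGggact
Grik3: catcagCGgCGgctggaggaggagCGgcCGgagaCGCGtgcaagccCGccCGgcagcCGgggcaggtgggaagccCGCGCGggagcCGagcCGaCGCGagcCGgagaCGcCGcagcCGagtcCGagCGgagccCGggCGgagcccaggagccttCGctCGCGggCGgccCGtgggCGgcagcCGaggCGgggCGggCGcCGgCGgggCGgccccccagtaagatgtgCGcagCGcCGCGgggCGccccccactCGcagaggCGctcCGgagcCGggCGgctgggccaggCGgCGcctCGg
Nrgn: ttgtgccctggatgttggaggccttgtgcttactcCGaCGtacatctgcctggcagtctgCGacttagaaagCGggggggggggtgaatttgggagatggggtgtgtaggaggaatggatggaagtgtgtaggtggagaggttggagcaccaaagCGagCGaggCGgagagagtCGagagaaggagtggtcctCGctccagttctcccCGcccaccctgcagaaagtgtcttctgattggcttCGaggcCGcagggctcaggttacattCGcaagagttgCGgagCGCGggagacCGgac
The windows hold 26, 26, 50 and 17 CG dinucleotides and are 65.7, 64.7, 82.0 and 59.3% GC in the same order. Gria2 and Grik2 thus have GC-rich starts although their transcripts, at 36.8 and 37.9% GC, are among the most AT-rich of the list. RefSeq windows were matched for 31 of the 46 genes (44 windows, as some genes have several starts), with a median GC content of 60.4% against 52.7% over 32851 windows of 27025 symbols. Both strands were searched for short motifs, and motifs may overlap each other. The GC box GGGGCGGGG was found in 22.7% of the members' windows against 11.4% of all windows, and the cAMP response element TGACGTCA in 0 of 44 against 1.79%. TATAAA was found in 6.82% against 13.6%. A match is a description of letters in the window and no test was made.

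The metabotropic receptor genes did not differ between genotypes beyond the spread of the libraries. Grm3, a receptor of neurons and astrocytes, was 16.1, 18.2 and 23.5 CPM in WT, 17, 19.8 and 17.8 in fetal KO, and 105 and 83 at week 70. The fetal groups overlapped (log2 fold change -0.04, SE 0.14, edgeR adjusted p 0.81; -0.05 with the offset), and the rise with age was 5.16-fold (log2 fold change 2.27). Grm5, which is linked to the postsynaptic density through Homer, gave -0.07 at day 15 (SE 0.13, edgeR adjusted p 0.664; 0.02 with the offset) and 1.25 with age. Both calls with age held with the offset, at 2.35 and 1.80.

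Of the Dlg scaffolds, Dlg4 fell in the KO fetal brain while Dlg1 and Dlg2 were slightly higher. Dlg4, which encodes PSD-95, the main scaffold of mature excitatory synapses, was 339, 376 and 385 CPM in WT, 206, 199 and 174 in fetal KO, and 1490.0 and 1174 at week 70. The groups did not overlap, and the gene (ENSMUSG00000020886, chromosome 11) was 1.90-fold lower in KO than in WT fetuses (log2 fold change -0.89, SE 0.0792, edgeR adjusted p 3.88e-06; -0.53 with the offset). With age it rose 6.91-fold (log2 fold change 2.69, SE 0.121, edgeR adjusted p 8.69e-09; 2.67 with the offset). Dlg3 (SAP102), a scaffold of young synapses, was 108, 111 and 117 CPM in WT, 81.8, 85.9 and 77.3 in fetal KO, and 184 and 190.0 at week 70. It too was apart between genotypes, but its day 15 log2 fold change of -0.41 was 0.06 and not called with the offset.

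Dlg1 (SAP97) was 73.5, 67.3 and 64.2 CPM in WT, 77, 77.5 and 80.7 in fetal KO, and 258 and 231 at week 70. Dlg2 (PSD-93) was 104, 111 and 119 CPM in WT, 121, 125 and 128 in fetal KO, and 607 and 491 at week 70. Both showed a narrow gap between the fetal groups. The log2 fold changes at day 15 were 0.24 for Dlg1 (SE 0.0618, edgeR adjusted p 0.00653) and 0.20 for Dlg2 (SE 0.0668, edgeR adjusted p 0.0224), and with the offset 0.34 and 0.44. Dlg2 did not pass without WT replicate 1 (0.13), WT replicate 2 (0.20), KO replicate 2 (0.19) or KO replicate 3 (0.18), or with all 8 libraries in 1 fit (0.16), and neither gene passed without a filter on low counts (0.15 and 0.11). With age Dlg1 rose by 1.54 and Dlg2 by 2.04 on the log2 scale.

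The log2 ratio of Dlg4 to Dlg3 was 1.65, 1.76 and 1.72 in WT, 1.33, 1.21 and 1.17 in fetal KO, and 3.02 and 2.63 at week 70. The 3 groups were apart, with fetal KO lowest. The difference was -0.48 between genotypes and 1.59 between ages (exact permutation p = 0.1 for each, the smallest possible, adjusted 0.1), and -0.59 and 1.99 in the offset fits. Per exon length Dlg4 made up 46.1% of the 4 Dlg genes in WT, 33.4% in fetal KO and 53.0% at week 70, while Dlg3 went from 31.9 and 32.1% in the fetal groups to 17.1%.

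Dlgap, Shank and Homer proteins form the deeper layers of the density. Of the 4 Dlgap genes 3 were lower in KO fetuses (background 32.5%), and 4 rose with age (background 37.6%). Dlgap3 was 82.9, 90.5 and 105 CPM in WT, 35.8, 33 and 22.9 in fetal KO, and 1033 and 706 at week 70. It had the largest fall of the 46 genes at day 15 in the fit without the offset (log2 fold change -1.56, SE 0.142, edgeR adjusted p 4.39e-06; -0.52 and still called with the offset) and rose 28.5-fold with age. Dlgap1 and Dlgap4 gave -0.62 and -0.42 at day 15, which the offset turned to 0.07 (not called) and 0.53 (called higher). Dlgap2 gave -0.24 (edgeR adjusted p 0.136), with a call at -0.33 without WT replicate 1 and at 0.45 with the offset. With age Dlgap1 rose 19.4-fold and Dlgap2 6.72-fold, whereas the rise of Dlgap4 by 0.71 on the log2 scale became a called -0.43 with the offset.

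The 3 Shank genes, at 55.0 to 62.4% transcript GC, were lower in KO fetuses without the offset and higher with it. Shank3 was 99.8, 104 and 117 CPM in WT, 75.4, 69.8 and 64.1 in fetal KO, and 702 and 506 at week 70. Its CPM did not overlap between genotypes, and its day 15 log2 fold change was -0.58 (SE 0.0783, edgeR adjusted p 8.90e-05) without and 0.72 (edgeR adjusted p 1.45e-05) with the offset. Shank1 moved from -0.81 to 0.47 and Shank2 from -0.43 to 0.53 in the same way, so no direction between genotypes can be given for this family. With age the 3 genes rose in both fits: Shank3 by 3.01, Shank1 by 1.81 and Shank2 by 1.37 on the log2 scale, and by 1.69, 0.76 and 0.76 with the offset.

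Homer1, Homer2 and Homer3 link Shank to metabotropic receptors and differed from each other with age. Homer1 was 64.4, 66.4 and 71.4 CPM in WT, 67, 63.4 and 71.2 in fetal KO, and 269.8 and 264 at week 70. Its fetal groups overlapped (log2 fold change 0.03, edgeR adjusted p 0.674; a called -0.38 with the offset, and a called 0.21 with upper-quartile scaling), and with age it rose by 1.89 (2.99 with the offset). Homer2 gave 0.01 at day 15 (edgeR adjusted p 0.947; a called 0.24 with the offset and 0.18 with upper-quartile scaling) and 0.99 with age. Homer3 was 39.2, 35.3 and 33.7 CPM in WT, 27.6, 26.9 and 24.9 in fetal KO, and 8.63 and 16 at week 70. It fell with age (log2 fold change -1.21, SE 0.214, edgeR adjusted p 3.90e-04; -2.14 with the offset), while at day 15 its -0.41 turned to a called 0.23 with the offset. Of its 3440 exon bases 874 lie opposite Ddx49, so its counts are uncertain where strand was not used.

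Among the CaMKII genes, Camk2a changed from a minor to the dominant subunit between day 15 and week 70. Camk2a was 57.5, 63.8 and 55.3 CPM in WT, 35, 37.9 and 35.6 in fetal KO, and 6036 and 4918 at week 70. The fetal groups did not overlap (log2 fold change -0.66, SE 0.0751, edgeR adjusted p 2.33e-05), but the offset gave -0.02 with no call. With age the gene (ENSMUSG00000024617, chromosome 18) rose 151-fold (log2 fold change 7.14, SE 0.137, edgeR adjusted p 7.08e-11; 6.49 with the offset). Camk2b was 163, 189 and 192 CPM in WT, 144, 143 and 124 in fetal KO, and 838 and 986 at week 70. It was lower in KO fetuses by 0.36 on the log2 scale (edgeR adjusted p 0.00335), a call lost with the offset (0.19) and with upper-quartile scaling (-0.19), and rose by 2.63 with age.

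Camk2g and Camk2d encode the subunits found across most tissues. Camk2g was 120.2, 118 and 118 CPM in WT, 97.5, 93.8 and 95 in fetal KO, and 469 and 479 at week 70. The replicates were tight, with a day 15 log2 fold change of -0.28 (SE 0.0502, edgeR adjusted p 7.18e-04) that was 0.10 with the offset and -0.10 with upper-quartile scaling, neither called, and 2.21 with age. Camk2d was 66.9, 64.9 and 85.9 CPM in WT, 84.3, 85.7 and 78.6 in fetal KO, and 96.1 and 118 at week 70. WT replicate 3 lay just above all KO fetal libraries. The day 15 log2 fold change of 0.23 missed the threshold (edgeR adjusted p 0.0617) but passed at 0.36 without WT replicate 3, and with the offset (0.29), DESeq2 (0.23) and upper-quartile scaling (0.40). Its rise of 0.27 with age (edgeR adjusted p 0.032) did not pass without fetal KO replicate 1 (0.28), 2 (0.29) or 3 (0.23), or week 70 replicate 2 (0.12), nor with upper-quartile scaling (0.02), with DESeq2 (0.23), with the replicate block (0.23) or when genes averaging under 10 counts were dropped (0.23).

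The log2 ratio of Camk2a to Camk2b was -1.50, -1.57 and -1.79 in WT, -2.04, -1.92 and -1.80 in fetal KO, and 2.85 and 2.32 at week 70. The fetal groups nearly touched, and the sign changed with age. The difference was -0.30 between genotypes (-0.21 in the offset fit) and 4.50 between ages (4.51 in the offset fit), with an exact permutation p of 0.1 for each, the smallest possible, and 0.1 after adjustment. Per exon length Camk2b and Camk2g held 40.0 and 37.5% of the family in WT and 39.0 and 38.8% in fetal KO, against 11.1 and 8.16% at week 70, and Camk2a held 15.9, 12.6 and 80.2% in the 3 groups.

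Neuroligins are adhesion proteins that span the synaptic cleft to neurexins: Nlgn1 at excitatory, Nlgn2 at inhibitory and Nlgn3 at both kinds of synapse. Nlgn2 was 439.8, 462 and 472 CPM in WT, 206, 200.2 and 174 in fetal KO, and 305 and 370.1 at week 70. It was 2.37-fold lower in KO fetuses (log2 fold change -1.20, SE 0.0734, edgeR adjusted p 2.57e-07), but the offset gave -0.11 with no call, and its rise of 0.70 with age turned to a called -0.57 with the offset. Nlgn3 was 48, 49.8 and 49.8 CPM in WT, 26.2, 26.4 and 23.8 in fetal KO, and 39.7 and 48.9 at week 70. The KO fetal libraries lay below all others (log2 fold change -0.91, SE 0.0703, edgeR adjusted p 1.33e-06; -0.29 with the offset), and the rise with age was 0.70. Nlgn1 rose by 0.30 at day 15 (edgeR adjusted p 0.00579), was at 0.07 and not called with the offset, and rose by 0.56 with age (1.86 with the offset). Of the 9271 exon bases of Nlgn3, 3823 are shared with a processed transcript on the same strand, and 1229 exon bases of Nlgn1 lie opposite an antisense gene, so their counts are uncertain.

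The 5 remaining genes encode dendrin (Ddn), inositol-trisphosphate 3-kinase A (Itpka), the calmodulin-binding protein neurogranin (Nrgn), the Arf exchange factor Iqsec2 and the kinase Pyk2 (Ptk2b). Ddn, Itpka, Ptk2b and Nrgn had the 4 largest log2 fold changes with age among the 46 genes. Ddn was 5.09, 5.59 and 5.98 CPM in WT, 3.70, 3.67 and 3.59 in fetal KO, and 2143 and 1939 at week 70. That is a 559-fold rise (log2 fold change 9.02, SE 0.125, edgeR adjusted p 4.15e-11; 7.94 with the offset). Itpka, at 0.841, 0.848 and 0.653 CPM in WT and 0.485, 0.556 and 0.521 in fetal KO, reached 303 and 280.4 at week 70, a rise of 9.01 on the log2 scale from a fetal level close to the limit set by 3 counts. Ptk2b rose by 8.33, Nrgn by 7.36 and Iqsec2 by 3.90 on the log2 scale, and with the offset by 7.66, 6.98 and 2.73.

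At day 15 the same 5 genes gave no difference between genotypes that held in both fits. Ddn gave -0.56 (SE 0.161, edgeR adjusted p 0.011), which was 0.25 and not called with the offset and missed the threshold with upper-quartile scaling (-0.39). Nrgn was 10.9, 9.83 and 9.04 CPM in WT and 9.33, 9.23 and 9.04 in fetal KO, which overlap (log2 fold change -0.07, edgeR adjusted p 0.631; 0.19 and not called with the offset), and 1798 and 1438 at week 70. Iqsec2 went from a called -0.91 to a called 0.18 with the offset. Ptk2b gave -0.60 (SE 0.21, edgeR adjusted p 0.0279) and did not pass without WT replicate 1 (-0.62) or 3 (-0.57), without KO replicate 1 (-0.63) or 2 (-0.57), or with the offset (-0.04), upper-quartile scaling (-0.43), DESeq2 (-0.61) or the replicate block (-0.60). Itpka gave -0.54 (edgeR adjusted p 0.183; -0.05 with the offset).

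Across the 3 groups the most frequent order was week 70 above WT fetal above KO fetal. By group means, 31 of the 46 genes were highest at week 70 and lowest in fetal KO, against 23.4% of the 18893 genes tested in both comparisons. In 21 genes all libraries of fetal KO lay below those of WT and all week 70 libraries lay above both fetal groups (background 14.6%). Another 11 overlapped between fetal genotypes and were higher at week 70 than both (background 10.4%). The opposite order, fetal KO above WT and week 70 below both, held for 3 genes, which are Gria2, Grik1 and Grik2 (background 16.4%). These orders are of CPM without the offset, with which most day 15 calls were higher in KO (19 higher, 8 lower). Because the fetal KO libraries enter both comparisons, the 2 directions of a gene are not independent.

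Of 75 further genes of the same pathway, 59 passed at day 15 (78.7%, background 62.6%), 10 higher (background 30.1%) and 49 lower (background 32.5%), with a median log2 fold change of -0.44. With the offset 18 were higher (background 26%) and 28 lower (background 25.1%), with a median of -0.07. Without the offset, 0 of 9 further receptors were higher and 6 lower, and with it 0 and 2. The 16 auxiliary proteins went from 3 higher and 11 lower to 4 and 7, and the 15 adhesion genes from 3 and 10 to 3 and 8. The 17 scaffold and trafficking genes went from 3 higher and 10 lower to 6 and 3, which turns the direction, and the 18 signalling genes from 1 and 12 to 5 and 8. Among the largest rises were those of the adhesion gene Lrrtm2 (log2 fold change 0.98, and 0.62 with the offset) and the kainate receptor auxiliary gene Neto2 (0.82 and 0.38). The largest falls were those of the receptor tyrosine kinase gene Ephb2 (-2.41 and -1.46), the neuronal pentraxin receptor gene Nptxr (-2.31 and -1.34) and the presynaptic metabotropic receptor gene Grm2 (-2.05 and -1.26). Ephb2, which binds NMDA receptors at the cell surface, was 286, 316 and 302 CPM in WT, 61.1, 54.2 and 50.2 in fetal KO, and 24.6 and 37.1 at week 70, so the 3 groups were apart.

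With age 73 of the 75 pathway genes passed (97.3%, background 82%), 60 higher (background 37.6%) and 13 lower (background 44.4%), with a median log2 fold change of 1.64 (1.56 with the offset). The largest rises were those of the activity-dependent gene Arc (7.64), the hippocampal signalling gene Rgs14 (6.81) and Camk2n1 (5.60), whose product inhibits CaMKII. Arc differed widely between the week 70 libraries, at 652 and 68.7 CPM, above 1.27 to 2 CPM in fetal KO. Camk2n1 stood at 90.7, 99.2 and 85.2 CPM in fetal KO and at 5788 and 3756 at week 70. The largest falls were those of Neto2 (-1.93, and -0.77 with the offset), Lin7c (-1.92 and -0.81) and Grip1 (-1.77 and -1.90), the last a scaffold that binds AMPA receptors.

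Markers of other cells moved alongside these differences at day 15. Of 11 neuronal markers 7 were lower and 2 higher in KO (median log2 fold change -0.34), and with the offset 5 were lower and 0 higher. All 8 progenitor markers were lower (6 with the offset), at 1430 to 1650 summed CPM in WT and 655 to 670 in KO. All 5 forebrain markers were lower in both fits (453 to 546 and 229 to 242 CPM), as were the 6 tested of 7 endothelial markers (171 to 235 and 51.2 to 66.3 CPM). In both fits 5 of 8 astrocyte markers were lower and 1 higher, and all 6 erythroid markers were higher (953 to 1230 and 3560 to 4370 CPM). Among 6 markers of excitatory neurons 4 were lower and 1 higher, and with the offset 2 and 0, with summed levels of 887 to 1000 CPM in WT and 763 to 836 in KO. Among 6 of inhibitory neurons 3 were lower and 0 higher, and with the offset 2 and 2, with 636 to 715 and 524 to 559 CPM. Their part in the members' differences was not tested.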

How the data were processed

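Per the file headers, the authors deposited unnormalised read counts by gene, with 1 column for each of the 8 libraries. The submitters' processing notes name FastQC, cutadapt, Trimmomatic, HISAT2, featureCounts and edgeR, and both GRCm38 and GRCm39. Versions, the build of the table, strand use and the handling of multi-mapping reads are not given in the sources used here. Blank gene names (351 rows) stayed in the tests under their identifiers.

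Tests used edgeR 4.0.16 under R 4.3.3 (filterByExpr, TMM, quasi-likelihood F-test, Benjamini-Hochberg over all tested genes), with the libraries of the 2 groups compared. Standard errors follow from the F statistic. Levels are CPM on TMM sizes over all 8 libraries. Transcript length, GC content, exon length and exon overlap came from GENCODE release M 21, which matched 33365 identifiers (97.3%). Exon length covers all annotated exons of a gene and can exceed its longest transcript. The offset smooths how far each library departs from the mean of a gene, on log length and GC content with mgcv 1.9.3. Ratios within a library use counts plus 0.5, and the exact two-sided permutation test covers 8 tests. The scripts were tested on simulated data.

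The genes, the pathway list and the markers were chosen with earlier results of these data known. Values in every library were set for NMDA, AMPA, Dlg and CaMKII genes and the gene of each other class with the largest change. Other genes shown that way were chosen after their values were seen. Pathway genes named were the 3 largest called rises and falls in each comparison among genes with no overlap and a mean of at least 50 counts. One gene this rule takes is not reported here. Alternatives were upper-quartile or RLE scaling, a mean of at least 10 counts as filter or no filter, DESeq2 1.42.0, all 8 libraries in 1 fit, the offset, the replicate number as a block, a pseudocount of 5 for ratios, shares without division by length, and each library left out. The ratios from the offset fits were added after seeing the data.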

Additional observations from a re-analysis of the deposited data

How the results depend on the processing

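The count of members called kept to within 1.5 times its value under the alternatives that kept both week 70 libraries. It was 24 to 33 at day 15, where 36 to 65.5% of all tested genes were called. With age it was 40 to 43, where 57 to 82.3% were called. These shares differ between the alternatives, so a steady count alone is no result about the members. The direction at day 15 did not hold: 7 higher and 25 lower (background 30.1 and 32.5%) became 19 and 8 with the length and GC offset (background 26 and 25.1%). With each fetal library of a comparison left out in turn the counts were 30 to 33 at day 15 (54.9 to 58.2% of all tested genes). With age they were 42 to 43 (78.4 to 78.8%). The call in the same direction held under all 15 alternatives at day 15 for Gria2, Gria4, Grik1, Grik2, Cacng8, Dlg4, Dlgap3, Grik3, Grin2b and Nlgn3, and under all 14 with age for 33 members that rose and for Grik1, Grik2 and Homer3, which fell. No difference of a log2 ratio changed sign, but a ratio of counts within a library does not depend on scaling or filter, so those alternatives could not move it. Upper-quartile scaling moved the median of all genes to 0.20 at day 15 (10 members higher, 21 lower) and to -0.44 with age (37 higher, 6 lower), beside 0.03 and -0.19 with TMM. It called 65.5% of all tested genes at day 15 and 82.3% with age.

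Same-numbered WT and fetal KO libraries deviated from their group means with correlations of -0.16, -0.19 and -0.17, against 0.066 to 0.1 for differently numbered ones. Same-numbered KO libraries across ages gave 0.041 and 0.012. Deviations within a group cancel, so these values depend on each other and cannot settle whether the numbers pair the samples. With the replicate block 31 members were called at day 15 and 43 with age, against 58.4 and 74.4% of all tested genes. With the block and the offset together 24 and 40 were called, against 46.3 and 69.9%.

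Log2 fold changes that changed sign at day 15 were, with the offset and with the block and offset together: Grin1 0.17 and 0.18, Grin2c 1.04 and 1.02, Grin2d 0.36 and 0.37, Gria1 0.27 and 0.28, Cnih2 0.28 and 0.28, Cacng2 0.15 and 0.16, Cacng3 0.18 and 0.19, Grm5 0.02 and 0.04, Dlg3 0.06 and 0.06, Dlgap1 0.07 and 0.07, Dlgap2 0.45 and 0.45, Dlgap4 0.53 and 0.53, Shank1 0.47 and 0.47, Shank2 0.53 and 0.53, Shank3 0.72 and 0.72, Homer1 -0.38 and -0.38, Homer3 0.23 and 0.23, Camk2b 0.19 and 0.20, Camk2g 0.10 and 0.10, Ddn 0.25 and 0.26, Nrgn 0.19 and 0.20, Iqsec2 0.18 and 0.18. With age these were Gria4 0.10 and 0.13, Grik3 -0.15 and -0.17, Grik5 -0.14 and -0.16, Dlgap4 -0.43 and -0.36, Nlgn2 -0.57 and -0.57. These fits differ from the main fit in the offset, and what lies behind the trend was not tested. With upper-quartile scaling the sign changed at day 15, without a call in either fit, for Grin2c 0.16, Gria1 0.04, Gria3 0.14, Cnih2 0.06, Grm3 0.13, Grm5 0.10, Nrgn 0.10. Without a filter it changed for Grin2a -0.07, Homer1 -0.06, Homer2 -0.09, and with all 8 libraries in 1 fit for Grin2a -0.01, Homer1 0.00, Homer2 -0.03 at day 15 and Grin3a 0.03 with age. Homer2 was at 0.00 with RLE scaling and with DESeq2. Values near 0 that crossed it when a library was left out ranged as Grin2a -0.05 to 0.11, Grin2c -0.20 to 0.26, Grin3a with age -0.40 to 0.22, Grm3 -0.18 to 0.11, Grm5 -0.21 to 0.12, Homer1 -0.02 to 0.07, Homer2 -0.04 to 0.03. Where this leaves 1 week 70 library, it is assumed to vary like the fetal KO libraries. The cause of these changes was not tested.

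Itpka, Ptk2b and Grin2c had few counts in the fetal libraries, at 8 to 18, 27 to 54 and 22 to 56. Their standard errors at day 15 were 0.335, 0.21 and 0.305 on the log2 scale, and the part of depth in these was not tested.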
